A study of Mus musculus with 8 samples.

Results

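In the periosteum, 10 of the 32285 genes counted were followed: Scx, Mkx, Tnmd, Thbs4, Chad, Cilp2, Egfl6, Mfap4, Nppc and Chodl. They were listed by symbol with earlier results of these data known, so their levels by cell class are a description and carry no test. Single-cell RNA sequencing by the droplet method, which counts unique molecular identifiers (UMIs, 1 per captured transcript), was performed on periosteal cells of the left femurs and tibias of male C57BL/6J mice aged 16 weeks. The mice of the ND group had eaten normal diet chow and those of the HFD group high fat diet chow. The labels list 4 samples per diet, but the values come as 1 pooled library per diet and the cells are not assigned to mice, so no test between diets was possible and every interval given covers counting error only.

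The periosteum is the connective tissue sheet on the outer face of bone, and tendons insert into it. Tendon cells (tenocytes) arise under the basic helix-loop-helix factor scleraxis (Scx) and the homeobox factor Mohawk (Mkx), and they deposit collagen fibrils together with small leucine-rich proteoglycans, thrombospondins and microfibril proteins. Tenomodulin (Tnmd) is a membrane glycoprotein of mature tendon. Nppc encodes C-type natriuretic peptide, a ligand of the receptor Npr2 best known from bone growth, and Chodl encodes chondrolectin, a membrane protein with a C-type lectin domain that is also found in muscle and motor neurons.

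The 2 libraries held 6314 (ND) and 6636 (HFD) barcodes and 48558889 and 49940976 UMIs. Barcodes with more than 500 and fewer than 8000 genes and less than 20% mitochondrial UMIs numbered 6029 and 6224, at a median of 4610 and 4823.5 UMIs. They were clustered without the 10 genes. Each cluster was called "X-like" where at least 3 markers of a cell type were detected in it and the further limits given with the processing were met. Mesenchymal-like cells made up 408 ND cells (6.77% of the library, 95% exact binomial interval 6.15 to 7.43) and 668 HFD cells (10.7%, 9.97 to 11.5). The automatic doublet call marked 0.149% and 0.370% of the cells, too few to be taken as working, and no cell was removed for it. There were 15 barcodes present in both libraries, none of them in a mesenchymal-like cell.

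Within the mesenchymal-like cells, 252 cells formed a tenocyte-like subcluster. It rested on 7 of 11 tenocyte markers (Fmod, Comp, Kera, Angptl7, Cpxm2, Wif1 and Ptx4), none of which was among its 10 leading genes, and those leading genes included the growth genes H19 and Igf2 and the Wnt modulator Sfrp2. It made up 23.0% (19.04 to 27.4) of ND and 23.7% (20.5 to 27.1) of HFD mesenchymal-like cells, so the intervals overlapped. At a finer clustering it came apart. A small part led by Chodl, Ptx4, Tnmd, Thbs4 and Rflnb carried 10 of the 11 tenocyte markers and alone earned the tenocyte-like name. It is called the Ptx4/Rflnb-led part here and held 42 cells. A large part of 213 cells led by Nppc, Fbxo2, H19 and Igf2 earned no name at that setting. Of these, 38 of the 42 and 212 of the 213 were among the 252 tenocyte-like cells, so that the Ptx4/Rflnb-led part made up 6.38% of the tenocyte-like cells in ND and 20.3% in HFD. The highest-scoring list in this Fbxo2/H19-led part was the osteoblast list (Bglap, Bglap2 and Runx2). The mean of this list was 0.998 in log2 over the median cluster, just short of the 2-fold that a name also required. The part thus narrowly missed the osteoblast-like name. Of the 7 tenocyte markers above, it gave 0 UMIs of Ptx4 and 10 of Kera over both libraries. The word tenocyte-like below therefore means the 252 cells together, and names rebuilt in this way can differ from those of the study.

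The DNA ahead of the start sites is shown because Scx is known to bind E-boxes, sequences of the form CANNTG. The 250 bases before the start were taken from RefSeq promoters on GRCm38.p6, which held 7 of the 10 genes (not Scx, Mkx and Mfap4). Any CANNTG is in capitals, and both strands were searched for this and for the motifs named below. CAGATG is itself a CANNTG. E-box counts are given for all 7, and the sequences of 4 genes are shown. They lie at chrX:133850758-133851007 on the plus strand for Tnmd, chr13:92794819-92795068 on the minus strand for Thbs4, chr1:86670574-86670823 on the minus strand for Nppc and chr16:78930698-78930947 on the plus strand for Chodl.
Tnmd: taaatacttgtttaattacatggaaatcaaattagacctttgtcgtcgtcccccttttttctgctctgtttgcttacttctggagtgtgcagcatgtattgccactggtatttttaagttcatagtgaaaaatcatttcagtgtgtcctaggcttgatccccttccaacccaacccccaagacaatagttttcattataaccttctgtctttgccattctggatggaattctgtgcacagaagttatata
Thbs4: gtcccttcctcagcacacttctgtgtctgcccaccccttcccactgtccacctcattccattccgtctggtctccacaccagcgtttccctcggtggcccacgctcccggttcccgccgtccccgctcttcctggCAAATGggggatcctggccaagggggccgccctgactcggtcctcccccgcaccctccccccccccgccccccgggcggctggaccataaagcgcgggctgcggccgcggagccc
Nppc: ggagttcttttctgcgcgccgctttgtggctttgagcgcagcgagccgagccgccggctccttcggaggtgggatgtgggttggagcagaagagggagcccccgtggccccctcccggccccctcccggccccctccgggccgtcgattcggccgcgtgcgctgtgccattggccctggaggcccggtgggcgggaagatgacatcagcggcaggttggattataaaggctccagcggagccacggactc
Chodl: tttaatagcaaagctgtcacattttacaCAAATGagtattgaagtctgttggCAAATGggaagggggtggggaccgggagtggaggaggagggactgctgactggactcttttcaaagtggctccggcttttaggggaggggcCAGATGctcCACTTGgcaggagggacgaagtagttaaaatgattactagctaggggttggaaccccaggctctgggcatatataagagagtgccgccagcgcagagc
The Chodl sequence held 4 E-boxes, 2 reading CAAATG and the others CAGATG and CACTTG. The Thbs4 sequence held 1, and the Tnmd and Nppc sequences held 0. Among the sequences not shown, that of Egfl6 held 3, of which 1 read CAGATG, and those of Chad and Cilp2 held 1 each. Of 32851 mouse promoters of this length 66.2% held a CANNTG, 14.4% a CAGATG and 12.4% a TATAAA. The Nppc and Chad windows each held 1 TATAAA. A match is a string of letters, not a shown binding site.

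Each of the 10 genes had its highest level in the tenocyte-like cells of both libraries, among the 16 classes with at least 20 cells in each. Of 11881 genes compared in the same way, 4.08% had this pattern. Levels are given as UMIs per 1000000 UMIs of the class (UPM). The skeletal muscle-like cells had too few ND cells to enter, and Nppc and Chodl were higher there, as given below. In all kept cells the share of a gene's UMIs that lay in tenocyte-like cells ran from 46.2% for Chodl to 79.6% for Mfap4.

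**Figure D1:**
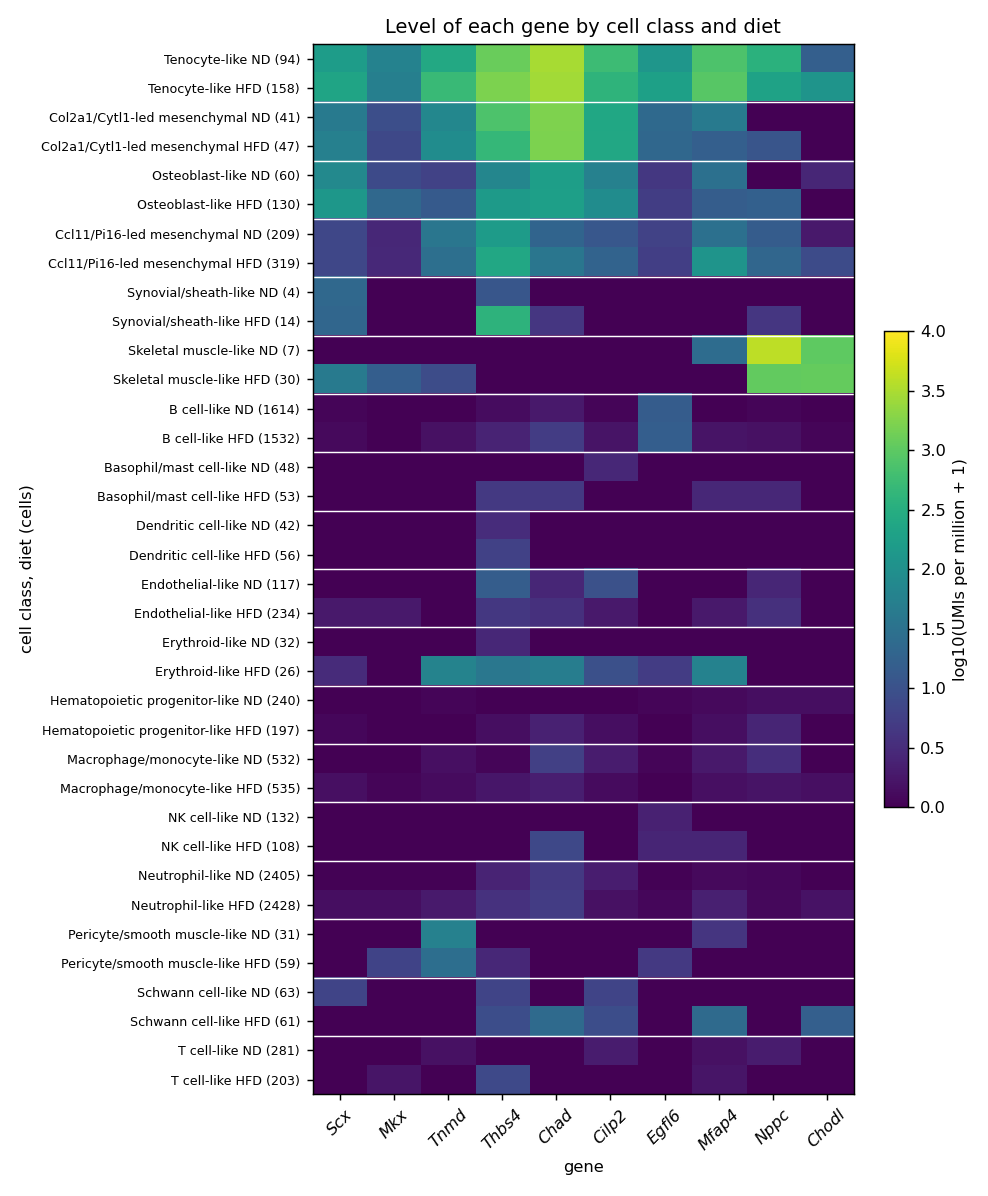
Level of each of the 10 genes (columns) in each cell class and diet (rows, number of cells in brackets), as log10(UPM + 1). Among the classes with at least 20 cells in each library the tenocyte-like rows are the brightest for each gene. Nppc and Chodl are brighter still in the skeletal muscle-like rows, which hold 7 and 30 cells.

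The regulators were sparse but concentrated. Scx (chr15:76457452-76459458, plus strand, GRCm38) gave 169 UMIs (159 UPM, 95% Poisson interval 136 to 184) in ND and 347 (213 UPM, 191 to 237) in HFD tenocyte-like cells. Osteoblast-like cells came next with 74.4 UPM (53.8 to 100) and 132 UPM (112 to 155), below the tenocyte-like intervals in both libraries. In the Fbxo2/H19-led part alone Scx stood at 114 UPM (93.8 to 137) in ND and 137 UPM (118 to 159) in HFD. These intervals overlapped those of the osteoblast-like cells. The Ptx4/Rflnb-led part stood far higher, at 561 and 568 UPM. A single ND osteoblast-like cell held 23 of the 43 Scx UMIs of that class. Mkx gave 62 UMIs (58.2 UPM, 44.6 to 74.6) in ND and 84 (51.6 UPM, 41.1 to 63.8) in HFD tenocyte-like cells. Its next levels, in Col2a1/Cytl1-led cells in ND (8.0 UPM, 2.94 to 17.4) and in osteoblast-like cells in HFD (21.2 UPM, 13.6 to 31.5), lay below those intervals. Scx overlaps Bop1, Chad overlaps Acsf2 and Mfap4 overlaps Mapk7, each on the opposite strand, and the sources used here do not say how the counting treated strand.

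Tnmd (chrX:133850980-133865577, plus strand) gave 276 UMIs (259 UPM, 229 to 292) in ND and 837 (514 UPM, 480 to 550) in HFD tenocyte-like cells. The Col2a1/Cytl1-led mesenchymal cells followed at 69.4 UPM (51.8 to 91.0) and 87.7 UPM (68.2 to 111). These cells also carried neutrophil genes among their leading genes and so were left unnamed. Outside the mesenchymal-like cells Tnmd was detected in pericyte/smooth muscle-like cells, in 8 of 31 ND and 8 of 59 HFD cells (57.0 and 26.6 UPM). All 29 Tnmd UMIs of the HFD erythroid-like cells came from 1 cell.

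The matrix genes gave more UMIs and reached more cells. Thrombospondin 4 (Thbs4, chr13:92751590-92794818, minus strand), an adhesive protein of the tendon matrix, was detected in 78.7% (69.1 to 86.5) of ND and 72.8% (65.1 to 79.6) of HFD tenocyte-like cells, at 1226 and 1615 UPM. Chondroadherin (Chad, chr11:94565047-94569127, plus strand), a leucine-rich protein that binds collagen and integrins, was detected in 95.7% (89.5 to 98.8) and 83.5% (76.8 to 89.0), at 2954 and 2784 UPM. Chad was higher still in the 7 ND and 15 HFD chondrocyte-like cells that the finer clustering set apart, at 10386 and 3341 UPM. Chad is also known as a protein of cartilage. Neutrophil-like cells, which do not make tendon matrix, had a Chad UMI in 0.707% and 1.77% of cells and a Thbs4 UMI in 0.582% and 1.48%. Their median depth was 4128 and 4302 UMIs, against 11000.5 and 9776 in tenocyte-like cells. With every cell thinned to 1000 UMIs, Chad remained detectable in 73.4% of ND and 67.1% of HFD tenocyte-like cells.

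Cilp2 (chr8:69880369-69887687, minus strand), a cartilage intermediate layer protein of the collagen matrix, gave 581 UMIs (545 UPM, 502 to 592) in ND and 647 (397 UPM, 367 to 429) in HFD tenocyte-like cells. Mfap4 (chr11:61485431-61488900, plus strand), a glycoprotein of elastic microfibrils, gave 814 (764 UPM, 713 to 818) and 1505 (924 UPM, 878 to 972). Egfl6 (chrX:166523007-166585720, minus strand), a secreted protein with EGF repeats, gave 132 (124 UPM, 104 to 147) and 304 (187 UPM, 166 to 209). For Mfap4 the second place differed between libraries, with Col2a1/Cytl1-led cells at 42.7 UPM in ND and Ccl11/Pi16-led mesenchymal cells at 119 UPM in HFD. The Ccl11/Pi16-led cells were left unnamed. Their 10 leading genes held 2 synovial or sheath markers against 1 of the best-scoring list, Pi16/Dpp4 fibroblast. Egfl6 had a separate place in the blood lineage. B cell-like cells held 110 ND and 116 HFD Egfl6 UMIs (13.8 and 14.9 UPM), spread over 88 and 102 cells. Among the B cell-like clusters, clusters 1, 8 and 15 stood at 14.3 to 30.2 UPM, and cluster 5 (316 ND and 330 HFD cells) at 0.739 UPM in ND and 0.766 UPM in HFD. Neutrophil-like cells had 1 and 3 Egfl6 UMIs.

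The 10 genes occurred together in single cells. Tenocyte-like cells carried a median of 6 of the 10, and 177 of 252 (70.2%) carried at least 5. The other 824 mesenchymal-like cells carried a median of 0, and 23 (2.79%) carried at least 5. Pairs of genes differed. Of 181 mesenchymal-like cells with Tnmd, 82 (45.3%) also had Scx, against 21.6% of all mesenchymal-like cells, and with cells thinned to 1000 UMIs the shares were 13.0% (9 of 69 cells) against 5.60%. Nppc was most often found with Chad (93 of 120 cells, 77.5%). Chad was found in 29.0% of all mesenchymal-like cells, and in 95.7% of ND and 83.5% of HFD tenocyte-like cells. Chodl was found in 26 mesenchymal-like cells, of which 20 had Thbs4 (76.9%), 19 had Tnmd (73.1%), 17 had Scx (65.4%) and 3 had Nppc (11.5%). In all mesenchymal-like cells Thbs4 was found in 34.8%, Tnmd in 16.8% and Scx in 21.6%. In tenocyte-like cells Thbs4 was found in 78.7% (ND) and 72.8% (HFD) and Tnmd in 48.9% and 48.1%. Nppc was found in 11.2% of all mesenchymal-like cells, close to its share in Chodl cells.

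**Figure D2:**
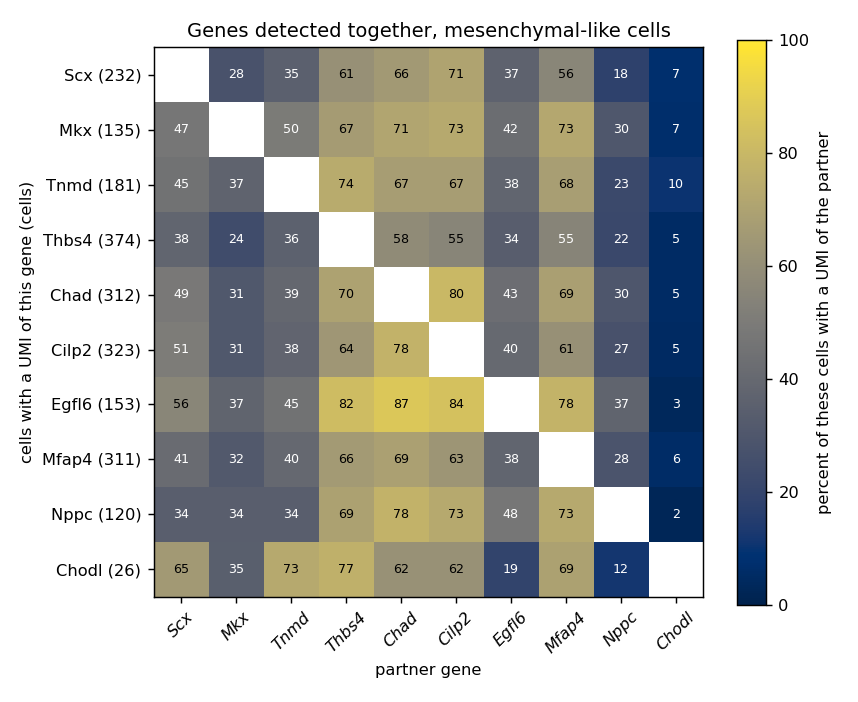
Percent of the mesenchymal-like cells with a UMI of the row gene (cells in brackets) that also had a UMI of the column gene, both libraries together. The Chodl row is high for Scx (65.4%), Tnmd (73.1%) and Thbs4 (76.9%) and low for Nppc (11.5%).

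The genes fell into different parts of the tenocyte-like cells. Of Tnmd UMIs in HFD mesenchymal-like cells, 64.3% lay in the 34 cells of the Ptx4/Rflnb-led part, and in ND 20.5% lay in its 8 cells. Chodl was the most concentrated there, with 15 of 19 ND (78.9%) and 179 of 212 HFD UMIs (84.4%). Nppc gave 0 UMIs there in both libraries, which allows up to 25.5 UPM in ND and 10.5 UPM in HFD, while the Fbxo2/H19-led part held 91.97% and 78.8% of its mesenchymal-like UMIs. Most UMIs of Mfap4, Egfl6 and Chad also lay in the Fbxo2/H19-led part, which held between 61.7% and 84.3% of them in each library. That part had 88 ND and 125 HFD cells, so its share of UMIs also follows its size. By level, Chad was higher in the Ptx4/Rflnb-led part in ND (3253 against 2792 UPM) and lower in HFD (1209 against 3117 UPM). Mfap4 (280 against 782 UPM and 813 against 944 UPM) and Egfl6 (42.5 against 126 UPM and 116 against 201 UPM) were lower there in both libraries. Since these genes lead the parts or were chosen on the same cells, this is a description of the parts and not a test.

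**Figure D3:**
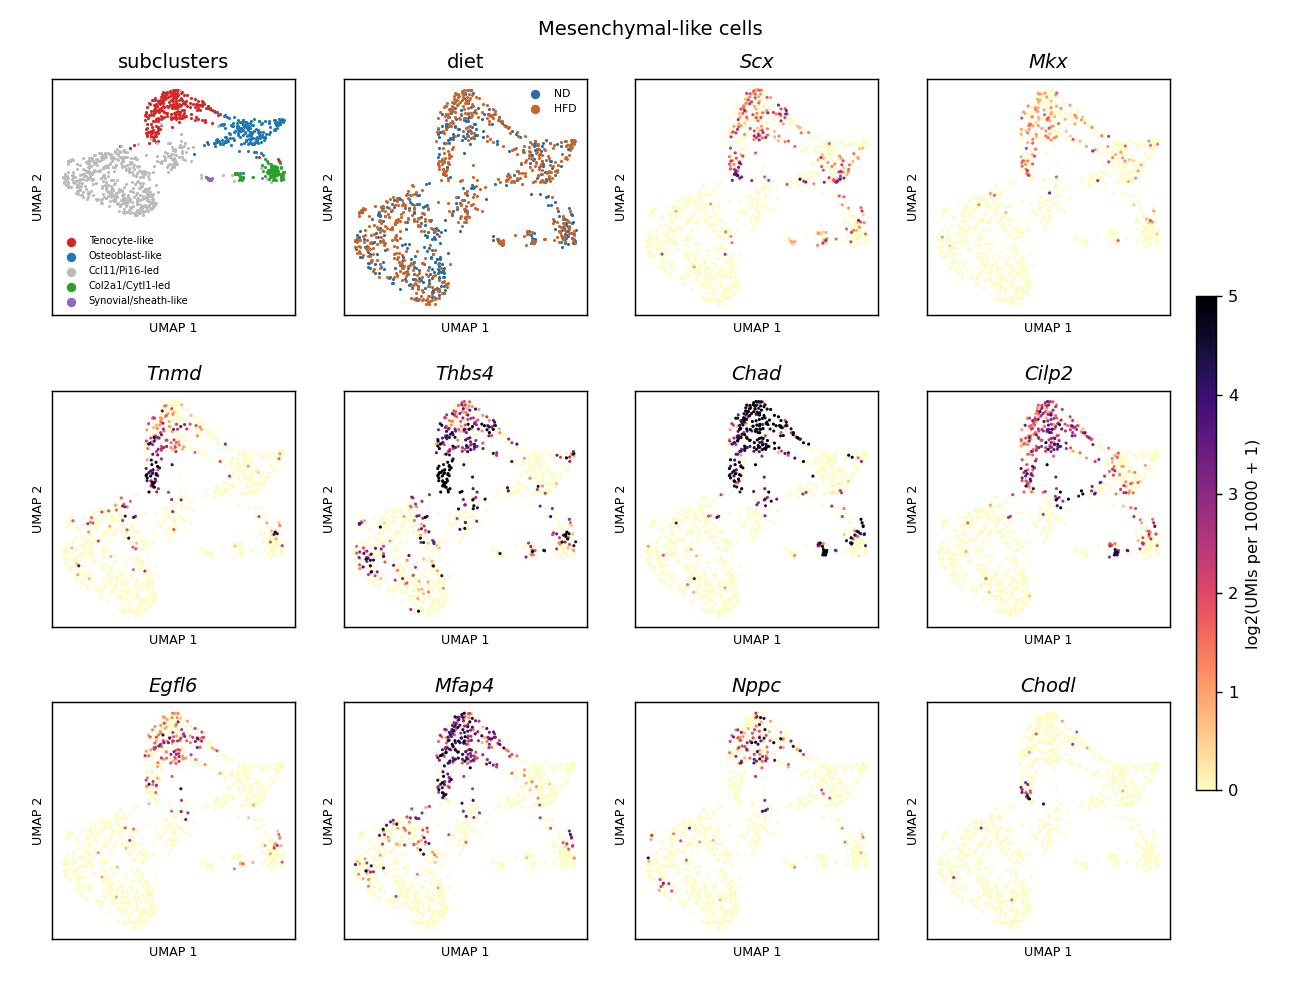
The 1076 mesenchymal-like cells in a UMAP made without the 10 genes, coloured by subcluster, by diet and by the level of each gene as log2(UMIs per 10000 + 1), the darkest colour standing for 5 or more. Dark Chodl, Tnmd and Thbs4 cells sit together at the lower left tip of the tenocyte-like group, and Nppc, Egfl6 and Mfap4 fill its upper part.

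The diet comparison asked how the 10 genes differed between the ND and HFD libraries. In tenocyte-like cells Chodl, Tnmd and Egfl6 were at least 1.5-fold higher in HFD, Nppc was at least 1.5-fold lower, and the other 6 lay within 1.5-fold. Of the 9327 genes with at least 20 UMIs there, 11.1% were higher and 7.75% lower by this measure. The median log2 ratio (HFD over ND, 0.5 added to each count) was 0.34 for the 10 genes and 0.04 for all genes. Over all mesenchymal-like cells 2 of the 10 were higher (Chodl, 2.90, and Tnmd, 0.73) and 0 lower, against 8.09% and 5.86% of 12614 genes. With 1 library per diet none of this can be set against the spread between mice.

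The ratio of Tnmd in tenocyte-like cells was 0.99 (0.79 to 1.19), or 1.98-fold. The share of cells with Tnmd was close, 48.9% (38.5 to 59.5) in ND and 48.1% (40.1 to 56.2) in HFD. The parts went in opposite directions. In the Ptx4/Rflnb-led part Tnmd gave 85 ND and 648 HFD UMIs (722 and 2271 UPM, log2 ratio 1.65, 1.33 to 2.00), while in the Fbxo2/H19-led part it gave 203 and 193 (203 and 143 UPM, -0.50, -0.79 to -0.21). The Ptx4/Rflnb-led part was 5.09% (3.55 to 7.04) of the mesenchymal-like cells in HFD against 1.96% (0.850 to 3.83) in ND, with overlapping intervals. Both the share of these cells and the level of Tnmd in them enter the value of the whole subcluster. Its ND side rested on 8 cells, and 1 of these carried 27.1% of its UMIs in neutrophil markers. Without cells over 1% of such UMIs (7 ND and 33 HFD cells left, a choice made after seeing the data) the ratio of Tnmd there was 1.31. This lies just below the interval above, since the ND level then rose from 722 to 913 UPM.

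Chodl (chr16:78930948-78951733, plus strand) differed most among the 10. It gave 16 UMIs in 4 of 94 ND cells (15.02 UPM) and 190 UMIs in 17 of 158 HFD cells (117 UPM), a 7.55-fold ratio (log2 2.92, 2.22 to 3.79). A single HFD cell held 123 of the 190 UMIs (64.7%). Without the cell with the most Chodl in each library, 9 ND and 67 HFD UMIs remained, and the ratio was 4.73-fold (log2 2.24, 1.30 to 3.50). The shares of cells with Chodl were 4.26% (1.17 to 10.5) and 10.8% (6.39 to 16.7), with overlapping intervals, and thinned to 1000 UMIs they were 1.06% and 3.16%. In neutrophil-like cells Chodl gave 0 UMIs in ND, which allows up to 0.187 UPM, and was found in 0.165% of cells in HFD. Most of the Chodl UMIs lay in the Ptx4/Rflnb-led part (15 ND and 179 HFD UMIs), where the share of cells with Chodl was 37.5% in ND (3 of 8, 8.52 to 75.5) and 35.3% in HFD (12 of 34, 19.7 to 53.5). Inside this part the shares of Chodl cells were thus close, on few cells, but its level was higher in HFD, at 127 and 627 UPM (log2 2.26, 1.54 to 3.17), and at 1.58 (0.58 to 2.93) without the top cell of each library. The part itself also had more cells in HFD (34 against 8), though the intervals of its share of mesenchymal-like cells overlapped.

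Nppc (chr1:86666291-86670571, minus strand) went the other way in tenocyte-like cells. It gave 380 UMIs (357 UPM, 322 to 394) in ND and 327 (201 UPM, 180 to 224) in HFD tenocyte-like cells, 1.78-fold lower in HFD (log2 -0.83, -1.05 to -0.61). It was detected in 50 of 94 ND cells (53.2%, 42.6 to 63.6) and 41 of 158 HFD cells (25.9%, 19.3 to 33.5), and the intervals did not overlap. Thinned to 1000 UMIs the shares were 20.2% (12.6 to 29.8) and 10.8% (6.39 to 16.7), and these intervals did. Neutrophil-like cells had Nppc in 0.125% and 0.165% of cells. In the other mesenchymal-like cells together Nppc was higher in HFD, with 31 and 88 UMIs (log2 0.97, 0.38 to 1.62). Within the Fbxo2/H19-led part, where the tenocyte-like UMIs of Nppc lay, the ratio was -0.64 (-0.85 to -0.42), smaller than in the whole subcluster. Over all genes of that part 11% were at least 1.5-fold higher and 7.66% lower, and of the 9 genes with enough UMIs there 1 was higher (Egfl6, 0.67) and 1 lower (Nppc).

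**Figure D4:**
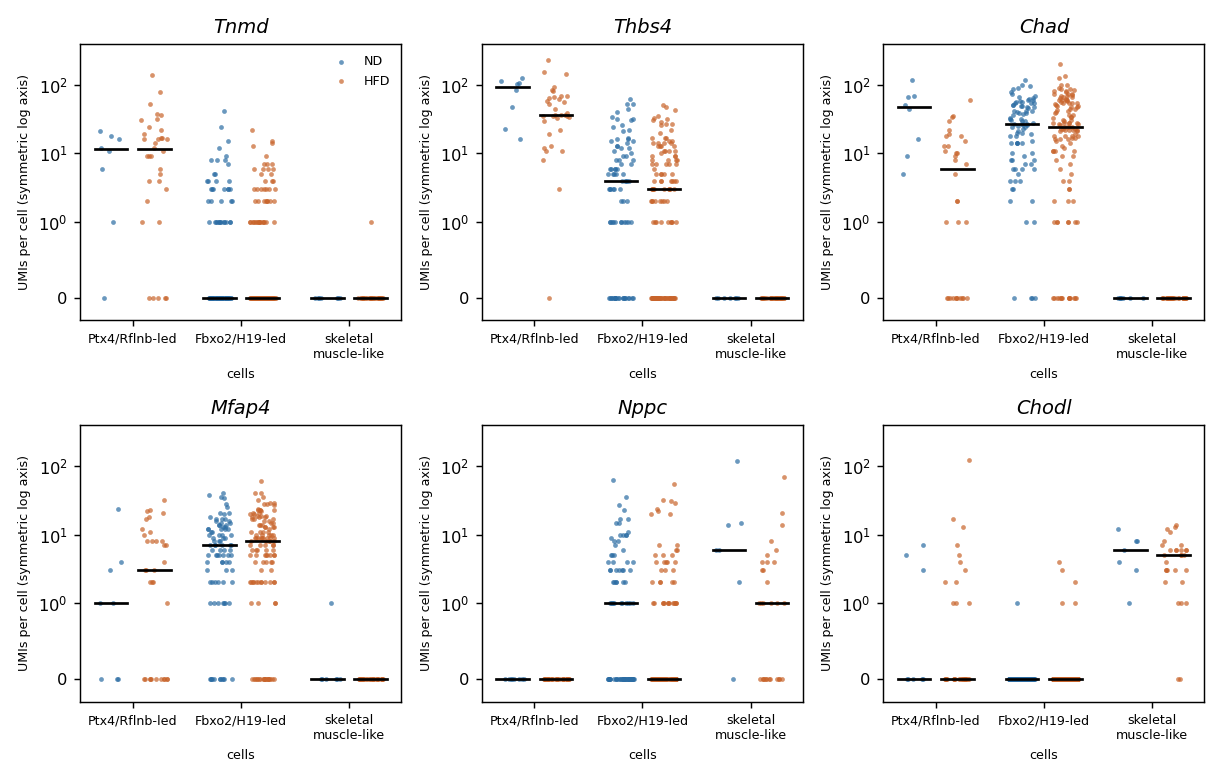
UMIs per cell of 6 genes in the Ptx4/Rflnb-led part, the Fbxo2/H19-led part and the skeletal muscle-like cells, by diet, on a symmetric log axis. Each point is 1 cell and each bar the median. Chodl in the Ptx4/Rflnb-led part has 1 HFD cell at 123 UMIs, and Nppc is at 0 in all cells of that part.

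The remaining genes differed less. Egfl6 was 1.50-fold higher in HFD tenocyte-like cells (log2 0.59, 0.29 to 0.90), at the limit set, and 0.56 without cells over 1% neutrophil UMIs, inside it. Scx had a log2 ratio of 0.42 (0.16 to 0.70), Thbs4 of 0.40 (0.30 to 0.49) and Mfap4 of 0.27 (0.15 to 0.40). Cilp2 stood at -0.46 (-0.62 to -0.29), Chad at -0.09 (-0.15 to -0.02) and Mkx at -0.18 (-0.67 to 0.32), whose interval held 0. Scx and Mkx, the regulators, thus lay within 1.5-fold in these cells. In the Ptx4/Rflnb-led part they stood at 0.01 (-0.40 to 0.45) and -0.04 (-1.02 to 1.10), values that turned on single cells. Without cells over 1% neutrophil UMIs they were -0.45 and -0.46, and without the top cell of each library Mkx was 1.45 (3 and 24 UMIs), since 1 ND cell held 9 of its 12 UMIs.

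In the Ptx4/Rflnb-led part 25.6% of 2929 genes were at least 1.5-fold higher and 13.7% lower. Of the 9 genes of the list with enough UMIs, Tnmd, Egfl6, Mfap4 and Chodl were higher and Chad and Cilp2 lower. Without the top cell of each library the Cilp2 call was lost (-0.61 became -0.44, -0.95 to 0.09). Egfl6 rested on 5 ND UMIs, 4 of them in 1 cell. Mfap4 gave 33 ND and 232 HFD UMIs (280 and 813 UPM, 1.52, 1.01 to 2.11), with 24 of the 33 in 1 cell, and without the top cells the ratio was 3.03. Chad gave 383 and 345 (3253 and 1209 UPM, -1.43, -1.64 to -1.21). Thbs4, whose level was highest of the classes here, gave 626 and 1787 (5316 and 6263 UPM, 0.24). Leaving out the cells over 1% neutrophil UMIs gave Mfap4 0.89, Chad -1.90, Chodl 1.58 and Thbs4 -0.23, so the direction of Thbs4 turned with 1 cell of each library.

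**Figure D5:**
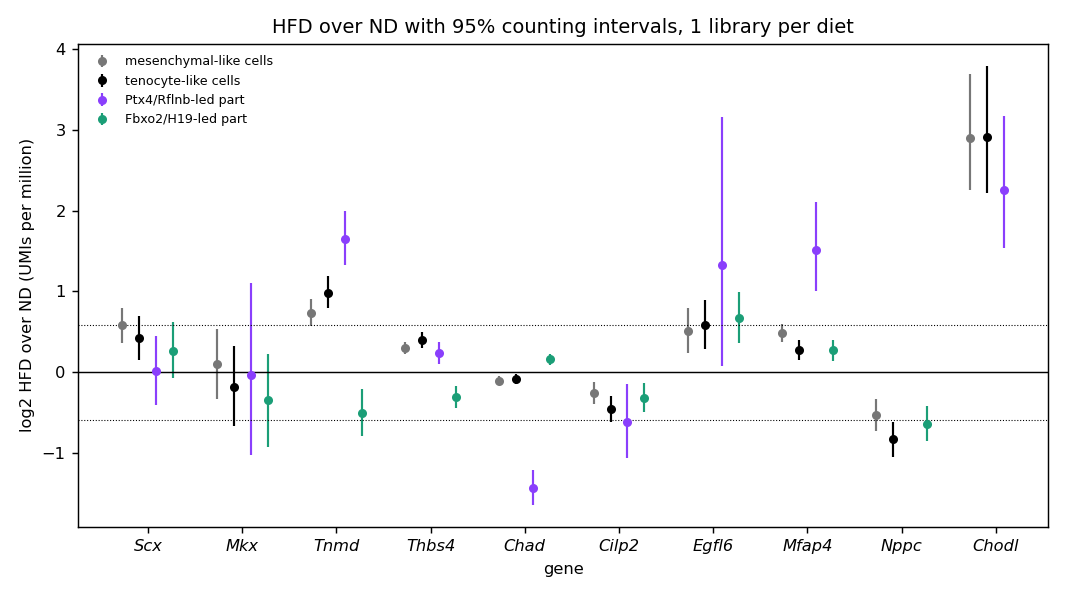
Log2 ratio of HFD over ND for each gene in 4 sets of cells, with 95% counting intervals, from 1 library per diet. Dotted lines mark 1.5-fold. Tnmd and Chad point in opposite directions in the Ptx4/Rflnb-led and Fbxo2/H19-led parts, and Chodl in tenocyte-like cells is at 2.92. Nppc in the Ptx4/Rflnb-led part (0 UMIs) and Chodl in the Fbxo2/H19-led part (1 and 11 UMIs) are not drawn.

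Beyond the tenocyte-like cells, members of the list also differed in other mesenchymal-like cells. In the unnamed Ccl11/Pi16-led cells Mfap4 gave 67 ND and 369 HFD UMIs (29.3 and 119 UPM, 2.01), and Thbs4 gave 353 and 787 (0.71). Of the 9 genes compared in these cells 5 were at least 1.5-fold higher (Thbs4, Chad, Cilp2, Mfap4 and Chodl) and 0 lower, against 9.59% of 10549 genes higher and 5.64% lower. Chodl there rested on 2 and 22 UMIs, and Cilp2 on 26 and 55 (0.62, -0.06 to 1.37), an interval that held equal levels. Without the top cell of each library Tnmd in these cells stood at -0.72 (-1.27 to -0.19), past 1.5-fold lower. Nppc then stood at 0.91 (0.05 to 1.91), past 1.5-fold higher, and Chodl rested on 0 and 12 UMIs. The count of 0 lower thus turned on single cells. The muscle factors Myod1, Pax7 and Myf5 gave 0 ND UMIs each and 12, 4 and 5 HFD UMIs in these cells. Their part in the Chodl value was not tested. In osteoblast-like cells Scx gave 43 and 150 UMIs (74.4 and 132 UPM, 0.82) and Thbs4 gave 39 and 170 (1.14). These last values turned on single cells, since without the top cell of each library Scx stood at 1.63 and Thbs4 at 2.99 there. Of the 6 genes compared there, Scx, Mkx, Thbs4 and Cilp2 were at least 1.5-fold higher and Mfap4 lower, against 11.8% of 7846 genes higher and 11.8% lower. Mkx rested on 4 and 24 UMIs (1.47, 0.07 to 3.60). Cilp2 stood at 0.63, and at 0.59 (-0.06 to 1.31) without the top cells. Mfap4 gave 17 and 16 UMIs (-1.06, -2.14 to 0.01), and without the top cells 1 and 11 (1.91, -0.36 to 7.85), so its direction turned. Chad stood at 0.02, and at -0.72 without the top cells. Nppc gave 0 UMIs in ND osteoblast-like cells, which allows up to 5.19 UPM, and 18 UMIs (15.9 UPM) in HFD.

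Chodl and Nppc had a place of their own in skeletal muscle-like cells, a cluster of 7 ND (0.116% of kept cells, 0.0467 to 0.239) and 30 HFD cells (0.482%, 0.325 to 0.687) named from Pax7, Myf5 and Myod1, the factors of muscle stem cells and myoblasts. Chodl gave 42 UMIs in 7 of 7 ND cells (1030 UPM, 742 to 1390) and 154 in 28 of 30 HFD cells (1136 UPM, 963 to 1330). Nppc gave 162 in 6 of 7 (3972 UPM) and 149 in 18 of 30 (1099 UPM). Of the 35 Chodl cells 33 had a UMI of Pax7, Myf5 or Myod1, and 23 had Nppc. The level of Chodl in these cells did not differ between the libraries beyond counting error (log2 0.13, -0.36 to 0.67). The ratio of Nppc was -1.85, and 1 ND cell held 119 of its 162 UMIs. Without the top cell of each library the ratio of Nppc was -1.15. The matrix genes Thbs4, Chad, Cilp2 and Egfl6 gave 0 UMIs, which allows up to 73.6 UPM in ND and 22.1 UPM in HFD. All 5 Schwann cell markers were at 0 in these cells. In turn Pax7, Myf5 and Myod1 were at 0 in tenocyte-like cells, where the 6 skeletal muscle markers summed to 2 ND UMIs and 1 HFD UMI. Of all 446 Chodl UMIs, 43.9% lay in skeletal muscle-like and 46.2% in tenocyte-like cells.

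Likeness over cell classes was measured by Pearson's correlation of log2(UPM + 1) over 33 class-by-diet units, which share 2 libraries, as a description. Scx was most like Fgfr2 (0.957), Mdk (0.951) and Thbs2 (0.942). Tnmd was most like Cpxm2 (0.914), Hoxc6 (0.897) and Twist2 (0.875). The matrix genes shared partners. Thbs4 was most like Itgbl1 (0.946), Comp (0.940) and Igfbp6 (0.932), and Chad most like Ecrg4 (0.945), Fmod (0.928) and Itgbl1 (0.925). Cilp2 was most like Pitx1 (0.937), Comp (0.936) and Ecrg4 (0.934), and Mfap4 most like Itgbl1 (0.932), Nkd2 (0.899) and Srpx (0.899). The closest genes were less close for Egfl6 (Gng8, 0.827, Mab21l2, 0.808, and Cldn10, 0.807), Nppc (Inhbb, 0.842, Mest, 0.812, and Bnc2, 0.790) and Chodl (Ccl19, 0.747, Piezo2, 0.737, and H19, 0.736). Between members, Chodl stood closer to Nppc (0.806) than to Tnmd (0.399) over classes, although in mesenchymal-like cells it was found with Tnmd. The HFD skeletal muscle-like cells, 1 unit from 1 library, held both Chodl (1136 UPM) and Nppc (1099 UPM). The correlation without this unit is not given.

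Genes of the same matrix and pathways were set beside the 10. Of 32 tendon matrix genes in tenocyte-like cells, 9 were at least 1.5-fold higher in HFD and 1 lower. Over all genes there 11.1% were higher and 7.75% lower. The median log2 ratio was 0.02, against 0.04 for all genes. The small proteoglycan Dcn (27313 and 27567 UPM, 0.01) was level, and the fibril collagen genes Col1a2 (3709 and 3094 UPM, -0.26) and Col1a1 (3682 and 2660 UPM, -0.47) were within 1.5-fold. Keratocan (Kera), a proteoglycan of tendon and cornea, stood at the upper end with 2 ND and 102 HFD UMIs (4.74, 3.17 to 8.12), of which 94 of the HFD UMIs lay in the Ptx4/Rflnb-led part. Kera was not absent from the ND library. In the other mesenchymal-like cells it gave 70 ND and 29 HFD UMIs (18.9 and 5.44 UPM), the opposite direction, so its ratio depended on the subcluster. Angptl7, the 1 gene lower, stood at the other end (1305 and 630 UPM, -1.05).

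Of 26 tendon regulators and TGF-beta genes 21 had enough UMIs, of which 1 was higher and 1 lower, against 11.1% and 7.75% of all genes. The immediate early factor Egr1 (2567 and 2205 UPM, -0.22) and the Kruppel-like factors Klf4 (1681 and 1093 UPM, -0.62) and Klf2 (1362 and 951 UPM, -0.52) were named for their ND level. The call in the lower direction was Klf4, and Etv4 stood at the upper end with 3 and 23 UMIs (2.13, 0.60 to 4.70). Of the 12 genes of the C-type natriuretic peptide axis 6 could be compared. Of these 0 were higher and 1 was lower, against 11.1% and 7.75% of all genes. The lower gene was Furin, a convertase of precursor peptides (78 and 61 UMIs, -0.97). Osteocrin (Ostn), a ligand of the clearance receptor, gave 141 and 235 UMIs (132 and 144 UPM, 0.12), the receptor gene Npr2 32 and 61 (0.31, -0.32 to 0.98) and the kinase gene Prkg1 10 and 21 (0.42).

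Of 16 binding partners of the matrix members 14 were compared, 6 higher and 1 lower, with a median of 0.36, against 11.1% and 7.75% of all genes and their median of 0.04. With at least 100 UMIs per gene 3 were higher, and the share over all genes at this minimum is not given here. Among the partners the thrombospondin receptor gene Cd47 stood at 0.16. The integrin genes stood at 0.59 (Itgb1), -0.01 (Itgb5), 1.16 (Itga1, 33 and 114 UMIs) and -0.69 (Itga5, 18 and 17 UMIs). Of 12 microfibril and elastic fibre genes 11 were compared, 0 higher and 1 lower. Fbln1 stood at -0.11, Fbln2 at -0.23, Mfap5 at 0.45 and elastin (Eln) at -0.72 (27 and 25 UMIs). Over all genes 11.1% were higher and 7.75% lower, and Mfap4 itself lay within 1.5-fold (0.27).

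Markers of other cells were present in the tenocyte-like cells at different levels in the libraries. The 8 neutrophil markers summed to 1529 UPM in ND and 1913 UPM in HFD, the 6 B cell markers to 347 and 482 UPM, the 7 osteoblast markers to 1416 and 818 UPM, the 7 chondrocyte markers to 160 and 73.7 UPM and the 5 synovial or sheath markers to 458 and 954 UPM. The 6 pericyte or smooth muscle markers summed to 43.2 and 152 UPM and the 5 Schwann cell markers to 200 and 352 UPM. Single genes made up most of 2 of these sums. Prg4, which is also in the tendon matrix list, gave 428 and 921 UPM of the synovial or sheath sum. S100b gave 197 and 304 UPM of the Schwann cell sum. The 6 Ccl11/Col15a1 fibroblast markers summed to 3002 and 3496 UPM and the 5 Postn osteogenic markers to 1688 and 2340 UPM. The 11 tenocyte markers summed to 6647 and 6367 UPM. The part of all these markers in the diet values was not tested.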

How the data were processed

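Periosteal cells were measured in 1 pooled 10x library per diet. According to the submitters' processing notes, the authors used Cell Ranger 6.0.1 with mm10, and they deposited UMI counts per gene and barcode, with no normalization. From these counts, barcodes with more than 500 and fewer than 8000 genes and less than 20% mitochondrial UMIs were kept. Cells were clustered with Seurat 5.3.0 in R 4.3.3 (sctransform 0.4.2, 30 principal components, Louvain resolution 0.5 for all cells and 0.2 for mesenchymal-like cells) without the 10 genes. A cluster was named where at least 3 markers of a type were at least 2-fold over the median cluster. The mean log2 over all markers of the type also had to reach 2-fold, with limits on depth and on markers of other types among the 10 leading genes. Those naming limits, the lists and the 10 genes were chosen with earlier results of these data known. UMIs were summed per class and library (Python 3.11.15, pandas 2.3.3, scipy 1.17.1) and scaled per 1000000 UMIs. Ratios had 0.5 added to each count and exact conditional intervals, shares had Clopper-Pearson intervals and levels Poisson intervals, all at 95% and all for counting error only. A gene was called higher or lower at 1.5-fold with at least 20 UMIs, and a count of 0 was given the limit of 3 counts. The ratio script was tested on simulated data.

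The library totals were 48558889 (ND) and 49940976 (HFD) UMIs. With 1 library per diet no test was run. Genes named were the 10, the 3 with the highest ND level and the 2 extremes of the ratio in each related list, the 3 most like each of the 10 (for Mkx not reported here), and markers. Kera in the Ptx4/Rflnb-led part and in the other mesenchymal-like cells was named after its values were seen. Alternatives were another clustering resolution, the 10 genes kept in the clustering, other gene and UMI minimums, another added count, median-ratio scaling, equal subcluster weights, thinning to 1000 UMIs, doublet removal (Scrublet in scanpy 1.11.5) and removal of shared barcodes. Alternatives chosen after seeing the data were removal of the top 5% of doublet scores, of cells over 1% neutrophil UMIs and of each gene's top cell, and a second clustering of an unnamed shallow cluster. No column of values was left unused (0).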

Additional observations from a re-analysis of the deposited data

Results flagged for a closer look

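Some of the 10 genes pointed in opposite directions between diets in different cells, with each counting interval clear of equal levels. Chad had a log2 ratio of HFD over ND of 0.92 in Ccl11/Pi16-led cells (43 and 111 UMIs) and -0.086 in tenocyte-like cells, where it was 0.01 at resolution 1 for all cells and 0.03 with more than 200 genes per cell, so that the opposite direction was lost. Cilp2 stood at 0.63 in osteoblast-like cells (32 and 98 UMIs) and -0.46 in tenocyte-like cells. Without the top cell of each library Cilp2 in osteoblast-like cells was 0.59 (-0.06 to 1.31), an interval that held equal levels. Nppc stood at 0.97 in the mesenchymal-like cells other than tenocyte-like (31 and 88 UMIs) and at -0.83 in tenocyte-like cells. Between the parts of the tenocyte-like cells, Tnmd stood at 1.65 in the Ptx4/Rflnb-led part and -0.50 in the Fbxo2/H19-led part. Thbs4 stood at 0.24 and -0.31 in these parts, and Chad at -1.43 and 0.16. Without cells over 1% neutrophil UMIs Thbs4 stood at -0.23 in the Ptx4/Rflnb-led part, and its opposite directions were gone. Tnmd then stood at 1.31 and -0.51 in the 2 parts and Chad at -1.90 and 0.16. These differences were not tested, because each diet had 1 library.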

How the results depend on the processing

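At resolution 0.5 for the mesenchymal-like cells the tenocyte-like name fell to the Ptx4/Rflnb-led part alone, and its share became 1.96% (ND) and 5.09% (HFD). In that part 9 of the 10 genes had enough UMIs, with 4 called higher in HFD and 2 called lower. Of the lists, the tendon matrix list had 14 genes higher and 3 lower and the regulators 3 and 3. The binding partners had 0 lower, and the microfibril list had 4 higher and 3 lower. How many genes of each list had enough UMIs in that part is not given. The list counts can thus not be set against the 25.6% of all genes higher and 13.7% lower. The number of the 10 genes lower in mesenchymal-like cells went from 0 to 1 (Nppc) with thinning to 1000 UMIs, and, as alternatives chosen after seeing the data, with the top 5% of doublet scores or the cells over 1% neutrophil UMIs removed. Thinning gave 13.0% of Tnmd cells with Scx. With at least 100 UMIs per gene the regulators had 0 higher, the binding partners 3 higher and 0 lower and the microfibril list 0 lower. With at least 1 UMI the regulators had 2 higher and 4 lower, the axis of C-type natriuretic peptide 2 and 3, and the binding partners 3 lower. The shares of all genes called at these changed minimums are not given here, so these counts are not a result about the lists. Of all values that answer a comparison, 23 moved past the limits set and 105 stayed within them. In tenocyte-like and mesenchymal-like cells no called direction of the 10 genes was turned by an alternative. In osteoblast-like cells Mfap4 turned from -1.06 to 1.91 without the top cell of each library. Inside 1.5-fold, Chad in tenocyte-like cells changed sign at resolution 1 for all cells (0.01) and with more than 200 genes per cell (0.03), and Cilp2 in mesenchymal-like cells with thinning (0.07, otherwise -0.25). No paired analysis was possible because each diet had 1 pooled library whose barcodes are not assigned to mice, and leaving out a replicate was not possible for the same reason. Depth limits Chodl and Mkx most, with 64 and 77 ND UMIs in all, and Chodl and Nppc rest on few cells.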
